A study of Mus musculus with 6 samples.

Results

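The genes described here are 90 protein-coding genes of pre-mRNA splicing among the 9700 protein-coding genes that the 6 deposited H3K9ac peak lists name. They were chosen by symbol: names that start with Hnrnp, Srsf, Snrp, Sf3a, Sf3b, U2af, Prpf or Rbm and a digit, together with Dhx38, Txnl4b, Tra2a and Tra2b. Because a gene had to be named in at least 1 list, the lists themselves helped to choose the members. H3K9ac, acetylation of lysine 9 of histone H3, is a mark of active promoters, and it was profiled by chromatin immunoprecipitation and sequencing in epithelial cells from the distal part of the intestine of mice (strain C57BL/6). The animals were conventionally housed, with an ordinary microbiota (2 libraries), monoassociated with Escherichia coli, which means colonized by that bacterium alone (2 libraries), or germ-free (2 libraries). No allele or agent other than the microbial status is given in the labels, and nothing in them says whether the 2 libraries of a group stand for different mice. Their spread may therefore be technical.

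Splicing removes introns from pre-mRNA and is carried out by the spliceosome, which assembles on each intron from small nuclear ribonucleoproteins (snRNPs), RNA-protein particles built on Sm proteins. U2AF marks the 3′ end of the intron, the SF3a and SF3b complexes of the U2 snRNP hold the branch point, and PRPF proteins and helicases such as DHX38 carry the complex through assembly and catalysis. SR proteins mostly promote the use of nearby exons, while hnRNP proteins coat the transcript and often oppose them. The Rbm prefix means only that a protein has an RNA-binding motif: some of these proteins are splicing regulators, and others work in RNA decay, RNA editing or RNA methylation.

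The peak lists differed widely in length, and that difference sets what every gene count below can be. For replicates 1 and 2, the conventional lists held 3113 and 15348 nuclear intervals, the E. coli lists 1986 and 868, and the germ-free lists 4428 and 17092. Background pileup, the mean depth of extended reads against which intervals were scored, is a guide to relative depth. It was 0.413 and 0.381 for the conventional lists, 0.690 and 0.403 for the E. coli lists and 0.733 and 0.579 for the germ-free lists, where the second germ-free value was inferred from the spacing of the fold values. The labels state 20 M reads for each library, and read totals per library were not used here. The calls went with the epithelial label, since all 12 epithelial marker genes examined had a promoter interval in at least 1 library (11 and 12 in the conventional, 9 and 8 in the E. coli, 11 and 12 in the germ-free libraries). None of 12 lymphocyte and myeloid markers and none of 12 markers of stroma, endothelium, muscle and nerve had one in any library. In bulk chromatin, fewer cells that carry the mark and less mark per cell cannot be told apart.

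A gene was counted as marked in a library when an interval assigned to that gene in the deposited list touched the stretch from 1 kb before to 1 kb after its transcription start site, here called a promoter interval. Promoters are shown first for the members on which the account turns. The first 5 sequences belong to the 4 genes marked in all 6 libraries, Rbm39 with both of its listed starts. Hnrnpa3 and Txnl4b, whose promoter region Dhx38 shares, stand for genes marked in all conventional and germ-free libraries and in no E. coli library. Srsf3 stands for the SR proteins marked in both germ-free libraries. Each runs 5′ to 3′ from 250 bases before the start site to 50 bases after it on GRCm38.p6, the assembly behind mm10, as RefSeq's promoter table gives it. An interval can mark a gene without touching the printed stretch. That of Hnrnpa3 was overlapped in conventional replicate 2 alone, that of Srsf3 in germ-free replicate 1 alone, and that of Rbm5 in conventional replicate 2 and germ-free replicate 2. The stretches of Rbm26 and Hnrnpul1 were overlapped in conventional and germ-free lists only. Capitals mark every match to one of 9 short motifs on either strand: the GC box GGGCGG, the CCAAT box, the TATA box with letters TATAAA, the ETS core CCGGAAG, the NRF1 letters GCATGCGC, the YY1 letters AAGATGGC, the E-box CACGTG, the CRE letters TGACGTCA, and the letters TCTCGCGA.
Rbm39, upstream start (chr2:156180189-156180488, minus strand): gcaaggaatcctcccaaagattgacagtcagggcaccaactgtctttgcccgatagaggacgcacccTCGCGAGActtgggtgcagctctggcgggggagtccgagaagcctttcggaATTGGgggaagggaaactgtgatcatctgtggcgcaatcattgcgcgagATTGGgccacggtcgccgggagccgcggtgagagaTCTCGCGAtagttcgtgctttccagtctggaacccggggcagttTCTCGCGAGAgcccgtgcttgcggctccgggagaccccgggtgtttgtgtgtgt
Rbm39, downstream start (chr2:156179531-156179830, minus strand): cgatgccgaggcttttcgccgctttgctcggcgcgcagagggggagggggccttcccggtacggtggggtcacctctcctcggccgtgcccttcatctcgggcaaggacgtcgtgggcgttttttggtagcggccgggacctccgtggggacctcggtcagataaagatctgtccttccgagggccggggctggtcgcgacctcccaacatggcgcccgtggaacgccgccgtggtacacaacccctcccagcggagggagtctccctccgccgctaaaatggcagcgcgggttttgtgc
Rbm26 (chr14:105177265-105177564, minus strand): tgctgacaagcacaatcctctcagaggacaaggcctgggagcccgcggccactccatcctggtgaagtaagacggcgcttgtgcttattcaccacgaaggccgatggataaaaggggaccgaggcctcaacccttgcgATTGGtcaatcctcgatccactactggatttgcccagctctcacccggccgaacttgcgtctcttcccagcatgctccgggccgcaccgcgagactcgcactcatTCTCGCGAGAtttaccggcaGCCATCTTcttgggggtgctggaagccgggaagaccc
Hnrnpul1 (chr7:25754710-25755009, minus strand): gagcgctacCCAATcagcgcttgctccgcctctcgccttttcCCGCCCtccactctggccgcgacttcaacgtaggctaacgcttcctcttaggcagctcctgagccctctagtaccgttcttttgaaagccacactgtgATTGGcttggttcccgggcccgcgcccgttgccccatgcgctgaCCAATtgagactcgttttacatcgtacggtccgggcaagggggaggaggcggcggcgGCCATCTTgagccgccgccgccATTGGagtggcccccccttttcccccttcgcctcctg
Rbm5 (chr9:107770953-107771252, minus strand): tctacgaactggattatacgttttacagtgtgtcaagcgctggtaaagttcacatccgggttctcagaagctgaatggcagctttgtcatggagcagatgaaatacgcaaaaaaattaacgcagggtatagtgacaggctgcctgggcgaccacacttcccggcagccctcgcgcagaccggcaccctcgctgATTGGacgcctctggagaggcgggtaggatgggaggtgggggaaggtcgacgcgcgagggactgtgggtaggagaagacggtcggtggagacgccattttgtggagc
Hnrnpa3 (chr2:75659009-75659308, plus strand): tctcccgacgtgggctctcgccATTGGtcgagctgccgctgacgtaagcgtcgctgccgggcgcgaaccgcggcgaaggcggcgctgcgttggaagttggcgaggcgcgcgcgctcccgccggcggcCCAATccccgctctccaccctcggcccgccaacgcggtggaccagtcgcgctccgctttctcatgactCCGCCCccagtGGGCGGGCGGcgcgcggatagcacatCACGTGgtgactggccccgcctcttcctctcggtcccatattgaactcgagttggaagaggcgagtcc
Srsf3 (chr17:29032410-29032709, plus strand): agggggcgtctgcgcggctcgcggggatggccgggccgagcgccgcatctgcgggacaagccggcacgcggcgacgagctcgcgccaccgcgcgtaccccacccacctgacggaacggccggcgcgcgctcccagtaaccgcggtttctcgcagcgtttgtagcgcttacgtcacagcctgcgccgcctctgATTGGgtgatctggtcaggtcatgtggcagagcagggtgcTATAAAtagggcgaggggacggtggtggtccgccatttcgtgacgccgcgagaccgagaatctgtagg
Txnl4b (chr8:109565642-109565941, plus strand): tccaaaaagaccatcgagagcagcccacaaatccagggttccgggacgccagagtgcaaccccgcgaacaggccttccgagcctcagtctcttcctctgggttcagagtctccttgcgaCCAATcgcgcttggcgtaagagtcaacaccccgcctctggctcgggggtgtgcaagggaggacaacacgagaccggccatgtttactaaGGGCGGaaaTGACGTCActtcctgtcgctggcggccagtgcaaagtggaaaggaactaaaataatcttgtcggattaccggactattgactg

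The table held promoters for 77 of the 90 members, 99 promoters in all. A gene with several starts counts several times, and windows of neighbouring starts overlap, so the 99 are not independent. Among the members without an entry there were Dhx38, Hnrnpul2, Prpf18, Rbm12b1, Rbm20, Rbm22, Rbm27, Rbm8a, Sf3b4, Snrpb, Snrpd1 and U2af2. Median GC content was 60.0% over the 99 member promoters, against 61.7% over 8475 promoters of genes with a promoter interval and 56.3% over all 21263 protein-coding promoters. The median ratio of observed to expected CpG was 0.896 in members, 0.791 in marked genes and 0.567 in all genes. The member promoters were thus near other marked promoters in GC content and above both comparison sets in CpG density.

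Motif shares mostly lay close to those of marked genes in general. A GC box was found in 58.6% of member promoters, 64.7% of those of marked genes and 46.2% of all. A CCAAT box was found in 46.5% of member promoters, 36.4% of marked and 38.2% of all, and an ETS core in 25.3%, 20.6% and 11.6% in the same order. TATAAA was rare, at 10.1% of member promoters, 6.54% of marked and 12.6% of all. These letters matched in 9 members, among them Srsf3 and Srsf2.

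The letters TCTCGCGA occurred in 6 of 99 member promoters (6.06%), which belong to Hnrnph3, Rbm15, Rbm26, Rbm39 and Srsf4, against 2.67% of marked and 1.41% of all promoters. Overlapping Srsf4 windows, with starts at chr4:131873637 and chr4:131873639, hold the same match and are both counted. In the promoters of Rbm39 and Rbm26 printed above, the capitals TCTCGCGAGA are overlapping matches on the 2 strands, and both cover the annotated start site. NRF1 letters were found in 4.04% of member promoters, 5.70% of marked and 3.52% of all. YY1 letters were found in 6.06%, 5.16% and 3.05%, E-boxes in 10.1%, 9.95% and 7.84%, and CRE letters in 2.02%, 3.35% and 2.23% in the same order. Of the 99 promoter windows, 52 were overlapped by no listed interval of their gene. Only 1, at the downstream start of Rbm39, was overlapped by intervals of all 6 lists. The 99 include further starts of the same gene and starts of members with no promoter interval. The same count is not given for the promoters of marked genes or of all genes. It therefore describes the windows and is no result about the members.

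Promoter intervals were listed for 84 of the 90 members in at least 1 library. Since listing was part of the choice, the share is better read over all 111 protein-coding RefSeq genes whose names fit the rule, listed or not. Of these, 87 (78.4%, 95% Wilson interval 69.8 to 85.0%) had a promoter interval in at least 1 library, against 37.0% of all 21900 protein-coding genes. The interval treats the genes as independent draws, but they are a fixed set, and Dhx38 and Txnl4b share 1 promoter region. The interval is therefore no test against the 37.0%. The 87 include 3 genes that the lists give under older names: Hnrnpdl (listed as Hnrpdl, marked in 1 library), Hnrnpll (Hnrpll, 2 libraries) and Sf3b6 (0610009D07Rik, 2 libraries). Those 3 are not among the 90 members.

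By library, 27 and 77 members were marked in the conventional, 12 and 6 in the E. coli-monoassociated and 39 and 76 in the germ-free libraries. As shares of the 90 members these were 30.0% and 85.6%, 13.3% and 6.67%, and 43.3% and 84.4%. Among all 9700 listed protein-coding genes the same shares were 20.5% and 74.2% in the conventional, 9.49% and 4.22% in the E. coli-monoassociated and 24.8% and 66.9% in the germ-free libraries. The members thus stood above the listed genes in all 6 libraries, and for both the shares were highest in the 2 longest lists and lowest in the 2 shortest. In the E. coli libraries the members' share rests on few genes. In conventional replicate 1, 44.4% of marked members had a strongest promoter interval tied to several genes, against 22.2% of all marked genes. That share was also higher in members in conventional replicate 2 and the germ-free lists, and lower in the E. coli lists. In the number of marked members, the 2 conventional libraries differed from each other, and the 2 germ-free libraries likewise, more than conventional replicate 2 differed from germ-free replicate 2.

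**Figure D1:**
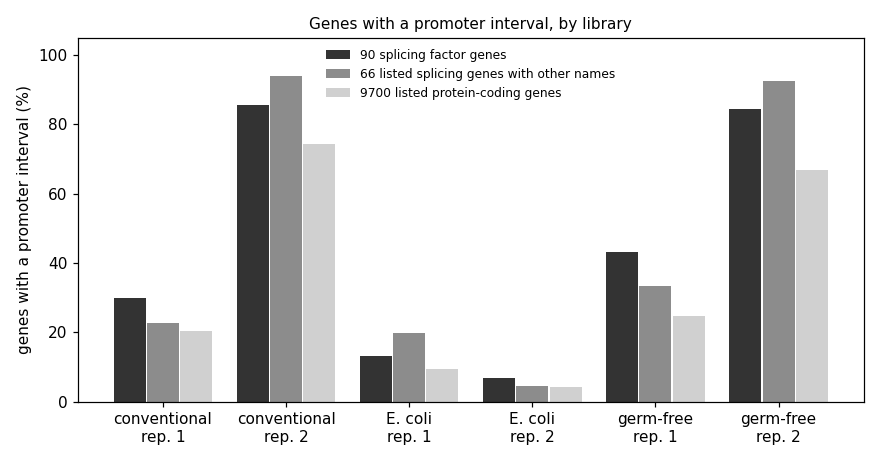
Share of genes with a promoter interval (vertical axis, percent) in each of the 6 libraries (horizontal axis) for the 90 splicing factor genes (dark), 66 listed splicing genes with other names (grey) and all 9700 listed protein-coding genes (light). The members run between 6.67% in E. coli replicate 2 and 85.6% in conventional replicate 2, with the highest shares in the 2 longest lists and the lowest in the 2 shortest.

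The calls were nested. All 27 members marked in conventional replicate 1 were also marked in conventional replicate 2, and their promoter intervals overlapped between the 2 lists at all 27. Over all genes, 98.9% of those marked in conventional replicate 1 were marked in replicate 2, with overlapping intervals at 96.2% of them. All 39 members marked in germ-free replicate 1 were also marked in germ-free replicate 2, with overlapping intervals at 37 of them, the exceptions being Hnrnpab and Srsf3. Over all genes the shares were 92.4% marked in both and 91.3% overlapping, so nesting was common to the lists. The E. coli libraries shared 4 members, which were 33.3% of the 12 in replicate 1 and 66.7% of the 6 in replicate 2, and the intervals overlapped at 2 of the 4 (Rbm39 and Rbm5) and not at Hnrnpul1 and Rbm26. Over all genes the shared ones were 26.9% of E. coli replicate 1 and 60.6% of E. coli replicate 2, with overlap at 77.8%. Between conventional replicate 2 and germ-free replicate 2, 69 members were shared, which is 89.6% of those marked in conventional replicate 2 and 90.8% of those marked in germ-free replicate 2. Over all genes the shared ones were 78.6% of conventional replicate 2 and 87.1% of germ-free replicate 2.

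**Figure D2:**
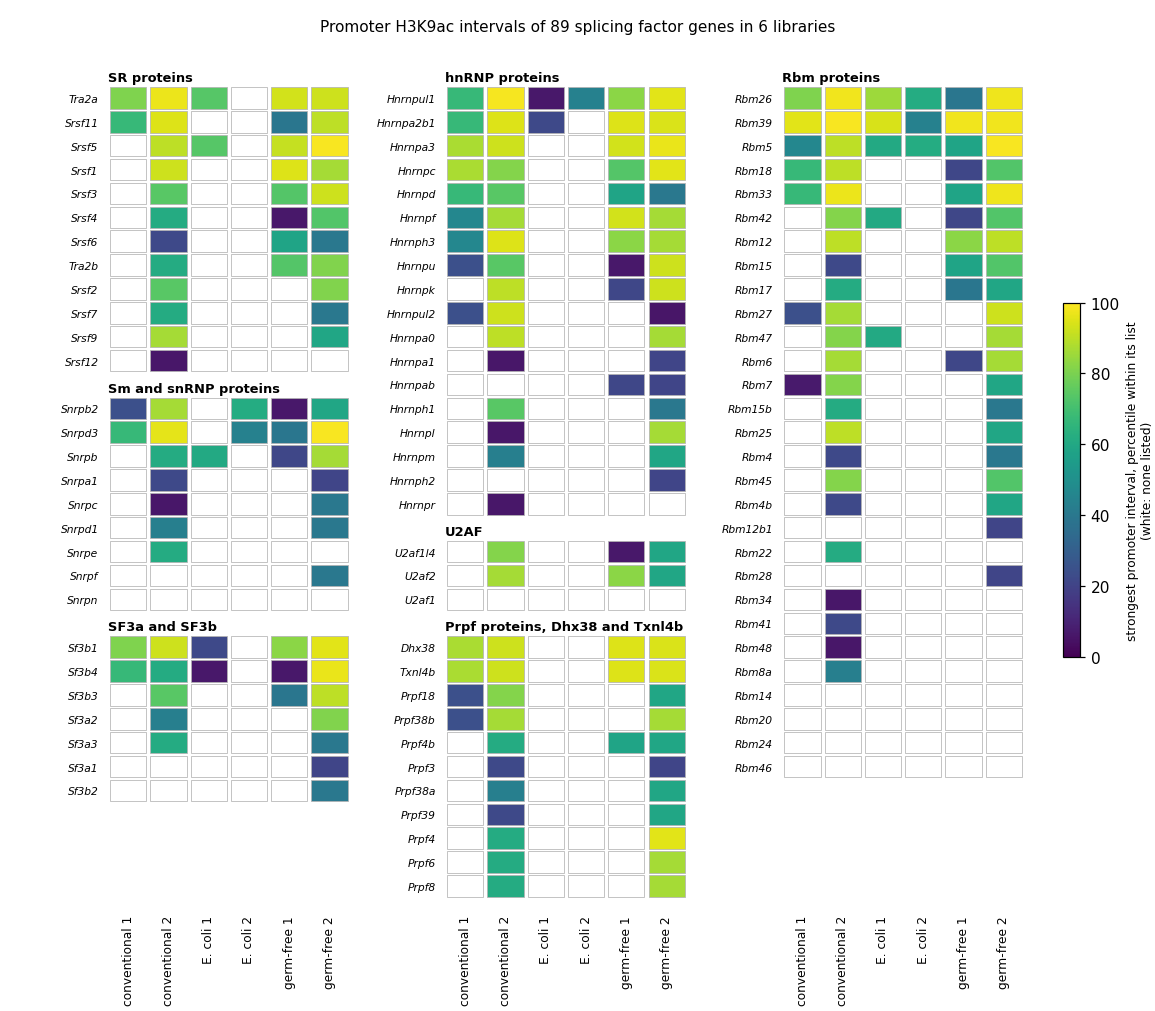
Promoter intervals of 89 of the 90 members (rows, by role class) in the 6 libraries (columns); colour gives the strongest promoter interval's percentile within its own list by −log10 p, and white means that none was listed. The E. coli columns hold 12 and 6 filled cells, and each filled cell of conventional replicate 1 and germ-free replicate 1 is also filled in replicate 2 of its group.

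Counted by number of libraries, 6 members were marked in none, 14 in 1, 25 in 2, 21 in 3, 14 in 4, 6 in 5 and 4 in all 6. The share in all 6 was 4.44% of the members, against 2.25% of the listed genes (218 genes), which is a difference of few genes. Without E. coli replicate 2, 8 members were marked in all the other libraries, and at equal list lengths 1 member was marked in all 6. The share over all genes is not given for these settings. The 4 genes were Rbm39, Rbm26, Rbm5 and Hnrnpul1. The 6 in 5 libraries were Hnrnpa2b1, Sf3b1, Sf3b4, Snrpb2, Snrpd3 and Tra2a, and each of them missed 1 of the E. coli lists.

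Rbm39 encodes a U2AF2-related coactivator and splicing factor. Its strongest promoter interval had a fold enrichment over background of 10.6 and 15.9 in the conventional lists, 11.2 and 5.70 in the E. coli lists, and 13.3 and 12.0 in the germ-free lists. Folds are the authors' own scores of single intervals and depend on the list they stand in, so they are used here to describe and rank intervals inside that list and never across lists. By that ranking the Rbm39 promoter stood at percentiles of 95.6 and 99.2 in the conventional and 93.9 and 43.5 in the E. coli lists. In the germ-free lists it stood at 97.7 and 98.0. It was thus among the strongest intervals in 5 lists and in mid-list in E. coli replicate 2. From the start site at chr2:156180240 on the minus strand, these intervals began between 0 and 229 bases into the gene. The window of the downstream start, printed above, was overlapped in all 6 lists. A weaker second interval upstream of the start was listed in conventional replicates 1 and 2 and in germ-free replicate 2.

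Rbm26, whose product acts in nuclear RNA decay, had folds of 7.08 and 13.0 in the conventional, 7.69 and 6.41 in the E. coli-monoassociated and 5.19 and 11.4 in the germ-free lists. Rbm5, a regulator of alternative splicing of apoptosis genes, had folds of 5.66 and 8.69, 5.92 and 6.41, and 5.77 and 13.9 in the same order of groups. Hnrnpul1, a relative of hnRNP U, had 6.37 and 14.5, 4.14 and 5.70, and 6.93 and 10.1. The Hnrnpul1 interval of E. coli replicate 1, at a percentile of 6.47, was among the weakest listed, and it did not touch the E. coli replicate 2 interval, which lay deeper in the gene.

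**Figure D3:**
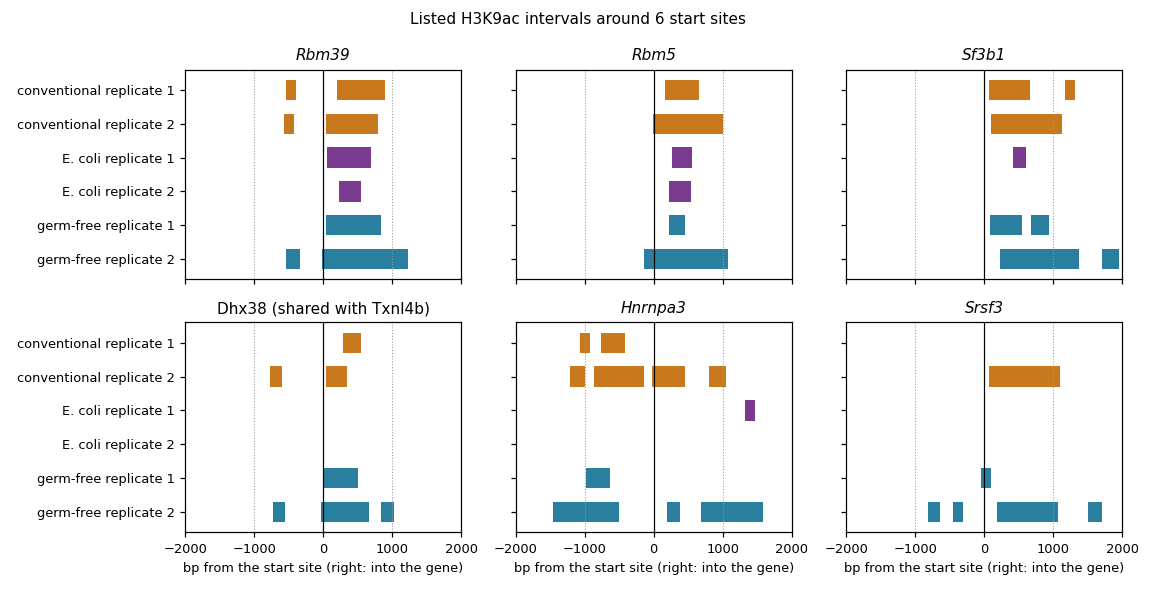
Listed intervals (bars) around 6 start sites, in bases from the start with the gene to the right (horizontal axis), in the 6 libraries (rows); dotted lines mark 1 kb on either side. Rbm39 and Rbm5 have a bar in every row, Sf3b1 lacks one in E. coli replicate 2, and Dhx38 with Txnl4b, Hnrnpa3 and Srsf3 have no bar inside the dotted lines in the E. coli rows.

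SR proteins and the related Tra2 proteins were 12 members. They were marked 2 and 12 times in the conventional, 2 and 0 times in the E. coli-monoassociated and 8 and 11 times in the germ-free libraries. Germ-free replicate 1 held 66.7% of this class, against 43.3% of all members and 24.8% of all listed genes. Conventional replicate 1 held 16.7% of the class, 30.0% of all members and 20.5% of all listed genes, so the class was near the listed genes there. In conventional replicate 2 and germ-free replicate 2 the class shares were 100% and 91.7%, against 74.2% and 66.9% of listed genes. In the E. coli libraries they were 16.7% and 0%, against 9.49% and 4.22%. With 12 genes and single libraries these shares are a description of the lists.

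Tra2a, an activator that binds purine-rich exonic enhancers, led the class. It had folds of 7.08 and 11.6 in the conventional lists, 6.51 and none in the E. coli lists, and 8.66 and 8.87 in the germ-free lists. Its paralog Tra2b was marked in 3 libraries, with a fold of 5.79 in conventional replicate 2, 6.35 in germ-free replicate 1 and 6.97 in germ-free replicate 2. Tra2a therefore had an interval in conventional replicate 1 and in E. coli replicate 1, where Tra2b had none.

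Srsf1, among the founding members of the SR family, had a fold of 9.41 in conventional replicate 2 and of 9.23 and 7.60 in the germ-free lists. A further germ-free replicate 2 interval of Srsf1, with a fold of 10.8, began 1072 bases into the gene and so just missed the promoter window. Srsf3, the smallest SR protein, had 6.52 in conventional replicate 2 and 6.35 and 8.87 in the germ-free lists. At Srsf3 the germ-free replicate 1 interval was a single stretch over the start site, whereas in germ-free replicate 2 the start was left free between intervals on both sides. Neither gene had an interval in conventional replicate 1 or in an E. coli library, and the missing E. coli calls were part of the rule that named both.

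Srsf11, an SR-like protein, had folds of 6.37 and 10.1 in the conventional and 5.19 and 8.24 in the germ-free lists. It had none in the E. coli lists, which was part of the rule that named it. The replicate 1 values of both groups belong to a region shared with Lrrc40, near the Srsf11 start at chr3:158036639, and the replicate 2 values to another Srsf11 start at chr3:158031754, so these strongest intervals do not lie at 1 promoter. Srsf5 was the other SR gene marked in an E. coli library, with a fold of 6.51 in E. coli replicate 1. It had 8.69 in conventional replicate 2 and 8.08 and 14.6 in the germ-free lists. Srsf5 was named after its values were seen.

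The 18 hnRNP members were marked 9 and 16 times in the conventional, 2 and 1 times in the E. coli-monoassociated and 10 and 17 times in the germ-free libraries. As shares these were 50.0% and 88.9%, 11.1% and 5.56%, and 55.6% and 94.4%. Over all listed genes the shares were 20.5% and 74.2%, 9.49% and 4.22%, and 24.8% and 66.9% in the same order. With 18 genes and single libraries these shares are a description of the lists. Hnrnpa3, a relative of the splicing repressor hnRNP A1 whose promoter region is partly shared with Gm6793, had folds of 7.78 and 9.41 in the conventional and 8.66 and 10.8 in the germ-free lists. In the E. coli lists its only interval was one in replicate 1 with a fold of 5.92, which began 1297 bases into the gene, in an intron and outside the promoter window. Hnrnpc, which binds uridine tracts, had 7.78 and 7.24 in the conventional and 6.35 and 10.1 in the germ-free lists. Hnrnpf and Hnrnph3 encode proteins that bind guanine tracts. Hnrnpf had 5.66 and 7.97 in the conventional and 8.66 and 7.60 in the germ-free lists. The conventional values belong to starts at chr6:117906782 and chr6:117907804 and the germ-free values to a start at chr6:117917294, and each of the 4 lists also held a promoter interval at the other of these regions, with an equal fold in conventional replicate 1 and a lower one in the other 3. Hnrnph3, with a promoter region shared with Pbld2, had 5.66 and 10.1 in the conventional and 6.93 and 7.60 in the germ-free lists.

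Hnrnpd, which binds AU-rich elements, had folds of 6.37 and 6.52 in the conventional and 5.77 and 5.07 in the germ-free lists. None of these 5 hnRNP genes had a promoter interval in an E. coli library, which was part of the rule that named them and is no result. Hnrnpa2b1, a core hnRNP protein whose promoter region is shared with Cbx3, had a weak one in E. coli replicate 1 (fold 4.73), beside 6.37 and 10.1 in the conventional and 9.23 and 9.50 in the germ-free lists.

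Hnrnpab was the only member marked in both germ-free libraries and in neither conventional library. Its folds of 4.62 and 4.43 stood at percentiles of 21.1 and 20.5 in the 2 germ-free lists, near their lower end. The germ-free replicate 1 interval lay 388 bases into the gene and the replicate 2 interval 158 bases before the start, so the intervals did not overlap each other.

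The Sm and snRNP class (9 members) was marked 2 and 7 times in the conventional, 1 and 2 times in the E. coli-monoassociated and 3 and 7 times in the germ-free libraries. Snrpd3, a core Sm protein, had folds of 6.37 and 10.9 in the conventional lists, 5.70 in E. coli replicate 2 and 5.19 and 13.9 in the germ-free lists, at a promoter region shared with Gucd1. Snrpb2, a U2 snRNP protein, had 4.95 and 7.97 in the conventional lists, 6.41 in E. coli replicate 2 and 4.04 and 5.70 in the germ-free lists. The 4.04 equals the lowest fold of germ-free replicate 1. Snrpb, another core Sm protein, had an interval in E. coli replicate 1 (fold 5.92) and none in E. coli replicate 2. Thus 3 of the 9 were marked in 1 E. coli library each, and none in both. Of all 9700 listed genes, 20.5% and 74.2% were marked in the conventional and 24.8% and 66.9% in the germ-free libraries. In the E. coli libraries 9.49% and 4.22% were marked, and 248 genes in both. With 9 genes these counts are no result about the class.

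The SF3a and SF3b class (7 members) was marked 2 and 5 times in the conventional, 2 and 0 times in the E. coli-monoassociated and 3 and 7 times in the germ-free libraries. As shares these were 28.6% and 71.4%, 28.6% and 0%, and 42.9% and 100%. Over all listed genes they were 20.5% and 74.2%, 9.49% and 4.22%, and 24.8% and 66.9%. With 7 genes these counts are no result about the class. Sf3b1, the scaffold of branch point recognition, had folds of 7.08 and 9.41 in the conventional lists, 4.73 in E. coli replicate 1 and 6.93 and 10.1 in the germ-free lists. Sf3b4 had 6.37 and 5.79 in the conventional lists, 4.14 in E. coli replicate 1 and 4.04 and 10.8 in the germ-free lists. The 4.14 and the 4.04 are among the lowest folds of their lists, whose minima were 4.14 and 4.04, so at Sf3b4 these calls sat at the limit of listing.

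Of the 3 U2AF members, none was marked in conventional replicate 1 or in an E. coli library. Of all listed genes, 20.5% were marked in conventional replicate 1 and 9.49% and 4.22% in the E. coli libraries. With 3 genes the absence is no result about the class. U2af2, which binds the polypyrimidine tract, had a fold of 7.97 in conventional replicate 2 and 6.93 and 5.70 in the germ-free lists. U2af1, its partner that reads the AG at the end of the intron, had no promoter interval anywhere. Its only listed interval (germ-free replicate 1, fold 4.62, 146 bp) began 1089 bases into the gene, just outside the 1 kb limit.

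The 12 members of the Prpf class, counted with Dhx38 and Txnl4b, were marked 5 and 12 times in the conventional, 0 and 0 times in the E. coli-monoassociated and 3 and 12 times in the germ-free libraries. Apart from U2AF it was the class with no call in either E. coli list. Of all listed genes only 9.49% and 4.22% had a call there, so with 12 genes the 0 is near the background and is no result about the class. In the conventional libraries 20.5% and 74.2% of all listed genes were marked, and in the germ-free libraries 24.8% and 66.9%. Dhx38 encodes the helicase that remodels the spliceosome before the second step of splicing, and Txnl4b a thioredoxin-like protein that binds PRPF6. The 2 genes face away from each other, with start sites listed at chr8:109565601 (minus strand) and chr8:109565986 (plus strand), and the authors tied the strongest promoter interval of each list to both, so their calls are 1 observation. A weaker interval of germ-free replicate 2, with a fold of 5.07, was tied to Dhx38 alone. The strongest shared interval had a fold of 7.78 and 9.41 in the conventional and 9.23 and 9.50 in the germ-free lists, at percentiles of 87.3 and 92.5 and of 94.7 and 94.3. These strongest intervals lay on the Dhx38 side, and the printed Txnl4b window was overlapped by no listed interval.

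Prpf18, which acts in the second step, and Prpf38b, a relative of the spliceosome activation factor PRPF38A, each had a fold of 4.95 in conventional replicate 1, at a percentile of 24.5. In conventional replicate 2 they had 7.24 and 7.97, and in germ-free replicate 2 they had 5.70 and 7.60. The kinase gene Prpf4b had 5.79 in conventional replicate 2 and 5.77 and 5.70 in the germ-free lists. Prpf3, Prpf38a, Prpf39, Prpf4, Prpf6 and Prpf8 were marked in conventional replicate 2 and germ-free replicate 2 alone. Among them was Prpf8, at the catalytic centre, with folds of 5.79 in conventional replicate 2 and 7.60 in germ-free replicate 2.

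The 29 Rbm members were marked 7 and 23 times in the conventional, 5 and 3 times in the E. coli-monoassociated and 10 and 20 times in the germ-free libraries. As shares these were 24.1% and 79.3%, 17.2% and 10.3%, and 34.5% and 69.0%. Over all listed genes the shares were 20.5% and 74.2%, 9.49% and 4.22%, and 24.8% and 66.9%. With 29 genes and single libraries these shares are a description of the lists. Beside Rbm39, Rbm26 and Rbm5, the E. coli calls were Rbm42 and Rbm47, each with a fold of 5.92 in E. coli replicate 1. Rbm33 had folds of 6.37 and 11.6 in the conventional and 5.77 and 11.4 in the germ-free lists. Rbm18, at a promoter region shared with Mrrf, had 6.37 and 8.69 in the conventional and 4.62 and 6.33 in the germ-free lists. Rbm12, shared with Cpne1, had 8.69 in conventional replicate 2 and 6.93 and 8.24 in the germ-free lists. These 3 genes had no promoter interval in an E. coli library, which was likewise part of the rule that named them.

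**Figure D4:**
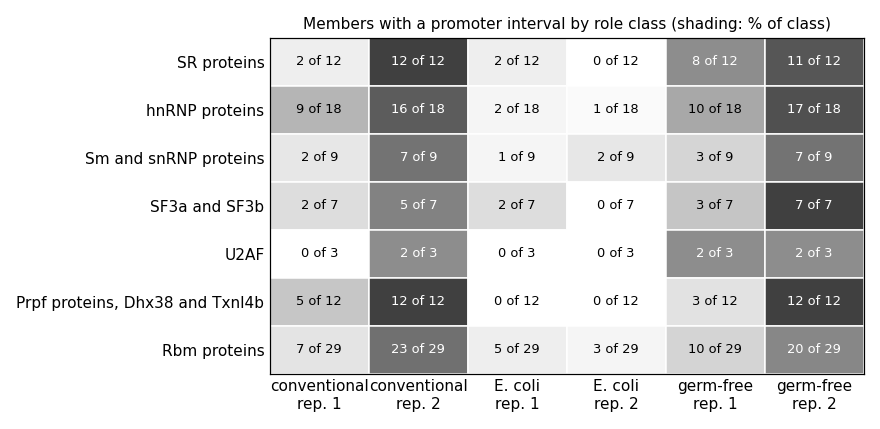
Members with a promoter interval in each role class (rows) and library (columns), as counts of the listed members of the class, with darker shading for a larger share. The Prpf row reads 5 and 12 of 12 in the conventional, 0 and 0 in the E. coli-monoassociated and 3 and 12 in the germ-free libraries, and the U2AF row likewise has no E. coli call, where 9.49% and 4.22% of all listed genes had one.

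Of the 90 members, 6 had no promoter interval in any library, and their listed intervals lay elsewhere. Rbm20, Rbm24 and Rbm46 are known for roles in heart muscle, in muscle development and in germ cells, and Snrpn is an imprinted gene active mainly in brain. Rbm46 and Rbm24 had 1 intergenic interval each, 199878 and 53283 bases from a start site, and Rbm20 and Snrpn had 1 intron interval each, 124181 and 73625 bases away, all with folds between 3.62 and 4.62. Rbm14, a paraspeckle protein, had 4 intervals 5806 to 9304 bases upstream in germ-free replicate 2, and U2af1 is described above.

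The account so far rests on the 1 kb limit. Just inside it, the farthest intervals tied to a single member began 996 bases from the start (Hnrnpa3, conventional replicate 2) and 968 bases away (Rbm27, germ-free replicate 2). Just outside, the nearest began 1007 bases (Prpf38b, conventional replicate 2) and 1023 bases away (Hnrnpc, germ-free replicate 2). Each of these 4 genes had another promoter interval in the same library, so none of the 4 calls turned on the limit.

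Between housing groups, the design asks how the microbiota relates to H3K9ac in the epithelium. Because 2 libraries against 2 allow no exact permutation p below 1 in 3, patterns were counted and read against all protein-coding genes. Of the 27 members marked in both conventional libraries, 17 (63.0%) had no promoter interval in either E. coli library, against a background of 61.9% (1218 of 1968 genes), so the members' share was near the background and is no result about them. A further 6 had an interval in 1 E. coli library and 4 in both. The 17 included 7 hnRNP genes (Hnrnpa3, Hnrnpc, Hnrnpd, Hnrnpf, Hnrnph3, Hnrnpu and Hnrnpul2), Dhx38, Txnl4b, Prpf18, Prpf38b, Srsf11, Rbm7, Rbm18, Rbm27 and Rbm33. The count was 0 when each list was held to its 868 most significant intervals, and 7 with shared promoter intervals left out. Without conventional replicate 1 it was 63 of the 77 members marked in conventional replicate 2. The share over all genes is not given for these settings, so the counts are not read against a background.

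Of the 27 members marked in both conventional libraries, none lacked the mark in both germ-free libraries, against 3.25% of all genes so marked. Of these 27, 21 were marked in both germ-free libraries and 6 in 1. Without conventional replicate 1 the count was 8 of the 77 members marked in conventional replicate 2. Without germ-free replicate 2 it was 6 of the 27. Both counts stand without the share over all genes. Of the 4 members marked in both E. coli libraries, none was unmarked in both conventional libraries (background 0%) or in both germ-free libraries (background 0%), and all 4 were marked throughout. At equal list lengths 1 member was marked in both E. coli libraries and neither conventional library, again without the share over all genes.

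Of the 39 members marked in both germ-free libraries, 26 (66.7%) had no promoter interval in either E. coli library, against 65.6% of all genes (1461 of 2226), again near the background. They include 8 hnRNP genes, 6 SR or Tra2 genes, and U2af2 with its relative U2af1l4. Of the 39, 1 gene, Hnrnpab, was in neither conventional library (2.56%, background 2.47%). Among the same 39, 21 were marked in both conventional libraries and 17 in 1. The count without an E. coli call was 2 at equal list lengths and 16 with shared promoter intervals left out. It was 13 where only intervals with a −log10 q from 5 upward were counted. Without germ-free replicate 1 it was 62 of the 76 members marked in germ-free replicate 2. The count without a conventional call was 18 of the 39 without conventional replicate 2. Without germ-free replicate 1 it was 7 of the 76. The share over all genes is not given for these settings either. These patterns share libraries between comparisons, so their counts are not separate pieces of evidence.

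Within the lists the members' strongest promoter intervals were at the median of middling to high rank, but they ranged widely. The lowest stood at percentiles of 6.97 and 5.90 in the conventional, 6.47 and 43.5 in the E. coli-monoassociated and 6.41 and 5.69 in the germ-free lists. The median percentile of a member's strongest promoter interval was 67.0 and 73.9 in the conventional, 60.4 and 52.4 in the E. coli-monoassociated and 58.3 and 76.9 in the germ-free lists. For all marked genes it was 46.4 and 73.9, 41.4 and 43.5, and 58.3 and 72.8. The members' median thus stood above that of marked genes at large in conventional replicate 1 (27 members), E. coli replicate 1 (12) and E. coli replicate 2 (6), and level with it or nearly so in the other 3. In E. coli replicate 2, 3 of the 6 were at 43.5, the median of all marked genes, and 3 at 61.4, so that median says little. The summed length of promoter intervals per marked member had a median of 331 and 601 bp in the conventional, 192 and 274 bp in the E. coli-monoassociated and 261 and 726 bp in the germ-free lists. Over all marked genes it was 279 and 538 bp, 209 and 220 bp, and 246 and 556 bp, so the members' median was the shorter one in E. coli replicate 1 and the longer one in the other 5 lists.

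Among members marked in both germ-free libraries, the median of the mean germ-free percentile was 65.1 for the 26 with no E. coli call, 69.1 for the 9 with 1 and 83.9 for the 4 with both. Over all genes it was 60.2, 75.3 and 89.9. Among members marked in both conventional libraries the medians were 70.4 (17 genes), 81.2 (6) and 86.1 (4), against 60.1, 74.2 and 89.3 over all genes. By quintile of germ-free rank, weakest first, the share with no E. coli call was 84.8, 79.6, 68.8, 60.7 and 34.4% over all genes. In members it was 71.4, 75.0, 66.7, 83.3 and 50.0%, which follows no steady course over 6 to 12 genes a quintile. By quintile of conventional rank it was 100, 80.0, 60.0, 50.0 and 50.0% in members, over 3 to 8 genes a quintile, against 84.8, 77.1, 66.2, 49.4 and 32.0% over all genes. The part of list length in the missing E. coli calls was not tested beyond the counts at equal list lengths given above.

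**Figure D5:**
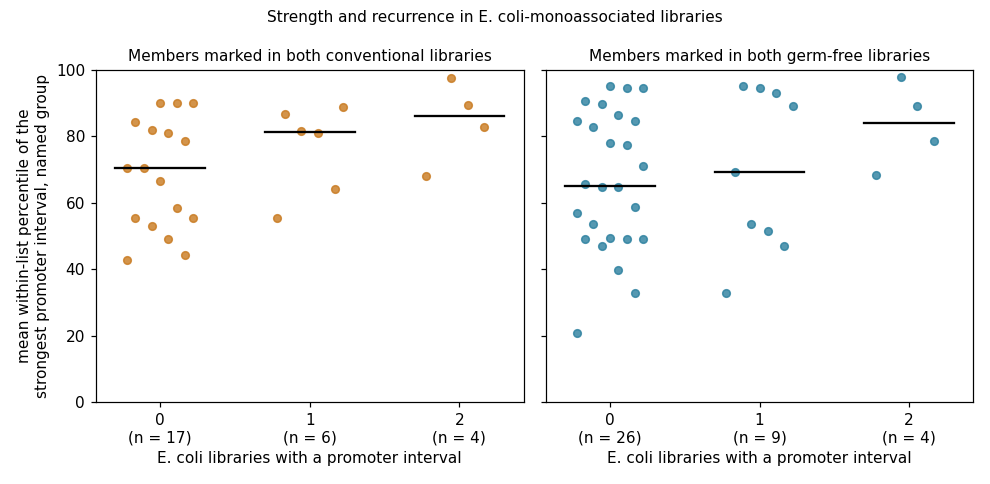
Mean within-list percentile of the strongest promoter interval in the group named above each panel (vertical axis) for members marked in both of its libraries, by the number of E. coli libraries with a promoter interval (horizontal axis); points are genes and lines are medians. The medians are 70.4, 81.2 and 86.1 in the conventional panel and 65.1, 69.1 and 83.9 in the germ-free panel, and genes with no E. coli call are found near the top of both panels.

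Several members with no E. coli call were nevertheless strong elsewhere. In the top quintile of germ-free rank, 6 of 12 members (50.0%) had no E. coli call, against 34.4% of all genes in that quintile. In the top quintile of conventional rank it was 4 of 8 members (50.0%), against 32.0%. With so few members the difference is a matter of 1 or 2 genes, and Dhx38 and Txnl4b count as 2 genes for 1 promoter region.

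The intervals lay mainly downstream of the start site, inside the gene. Among intervals tied to 1 gene alone, the middle of the strongest was downstream in 93.3% and 80.0% of members in the conventional, 90.0% and 100% in the E. coli-monoassociated and 88.5% and 77.4% in the germ-free lists. These shares rest on 15 and 55, 10 and 5, and 26 and 53 members. Over all genes they were 89.2% and 86.8%, 87.9% and 85.5%, and 85.4% and 83.6%. The members were above all genes in 4 lists and below them in conventional replicate 2 and germ-free replicate 2. The median distance was 325 and 340 bases, 394 and 528 bases, and 394 and 452 bases in the same order. For all genes it was 432 and 381 bases, 412 and 442 bases, and 420 and 459 bases.

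Many splicing genes have other names, and 74 of them were taken as a list by function (helicases, Lsm and exon junction proteins, SR kinases and tissue regulators). Of these, 66 were named in the lists and 65 were marked in at least 1 library. They were marked 15 and 62 times in the conventional, 13 and 3 times in the E. coli-monoassociated and 22 and 61 times in the germ-free libraries. In all 6 libraries 2 of them were marked. Cwc27, a spliceosomal cyclophilin, had folds of 6.37 and 7.24 in the conventional, 5.92 and 7.84 in the E. coli-monoassociated and 8.08 and 9.50 in the germ-free lists. Smndc1, a spliceosome assembly factor related to SMN, had 5.66 and 14.5, 5.92 and 5.70, and 11.0 and 8.87 in the same order.

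In this second list, 8 of 15 genes marked in both conventional libraries (53.3%) and 10 of 22 marked in both germ-free libraries (45.5%) had no E. coli call, against 61.9% and 65.6% of all genes so marked. Among the kinases that phosphorylate SR proteins, Clk1 had folds of 7.08 and 13.8 in the conventional lists, 4.73 in E. coli replicate 1 and 8.66 and 16.5 in the germ-free lists. Clk4 had 4.95 and 7.97 in the conventional lists, 4.14 in E. coli replicate 1 and 5.77 and 10.1 in the germ-free lists. The 4.14 equals the lowest fold of E. coli replicate 1. Esrp1 and Esrp2, regulators of epithelial splicing, were marked in the replicate 2 libraries of the conventional and germ-free groups alone, with folds of 6.52 and 5.07 for Esrp1 and of 5.79 and 5.70 for Esrp2. The genes of this second list named here beyond Cwc27 and Smndc1 were chosen after their values were seen.

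Outside promoters the members had 109 further intervals at 32 genes, of which 48 were in introns, 38 upstream, 13 intergenic and 10 in exons by the authors' classes. Rbm47 held 26 of them and Tra2a 8, and both were singled out after their values were seen. Rbm47 encodes a cofactor of the intestinal RNA editing enzyme APOBEC1. All 26 were in introns, and 1 stretch of chromosome 5 between 66053235 and 66054510 held an interval in all 6 lists, while its promoter was marked in conventional replicate 2, E. coli replicate 1 and germ-free replicate 2. The strongest interval of that stretch had folds of 9.91 and 10.1 in the conventional, 5.92 and 4.28 in the E. coli-monoassociated and 4.04 and 12.7 in the germ-free lists. The 4.28 and the 4.04 equal the lowest folds of their lists, so these calls sat at the limit of listing.

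At Tra2a an intergenic interval 27405 to 27446 bases from its start site, past the far end of the gene, was in all 6 lists at nearly the same coordinates (chromosome 6, 49236394 to 49236647). Its folds were 9.91 and 13.0 in the conventional, 13.0 and 9.98 in the E. coli-monoassociated and 17.3 and 25.3 in the germ-free lists, above every promoter interval of Tra2a in the same list. It was 170 to 245 bp long in every list, whereas the strongest promoter interval of Tra2a was 204 and 886 bp long in the conventional lists, 146 bp in E. coli replicate 1 and 468 and 1228 bp in the germ-free lists. What this short, fixed interval is was not tested.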

How the data were processed

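H3K9ac was measured in 6 libraries, 2 per housing group, and the labels gave group and replicate. The submitters' processing notes name MACS2 2.1.1.20160309, Bowtie 1.2.0 and the mm10 build; whether there was an input control, and with which options peaks were called, is not given in the sources used here. The deposited files were 1 list of intervals per library, each with its own intervals; whether replicates were pooled at any step is not given in the sources used here. The deposited lists gave for every interval its summit pileup (a coverage signal), its fold over background (a ratio) and the −log10 of its p-value and q-value, with a region class and RefSeq gene that the authors assigned. The list of germ-free replicate 2 had its values moved against its header and no pileup, and its columns were identified from the values. Mitochondrial lines, which held fewer cells than the header, were left out. Values below the authors' cutoffs are not in the lists (lowest fold 4.25 and 3.62 in the conventional, 4.14 and 4.28 in the E. coli, 4.04 and 3.80 in the germ-free lists), so a promoter without an interval may still carry the mark, and precision at a single gene is that of a yes or no call.

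Lines for further summits of 1 interval were merged. Of 10621 gene names in the lists, 10567 matched the RefSeq table of GRCm38.p6, and protein-coding genes were kept. Promoter calls and the class the authors gave disagreed at 1 to 3 intervals per list. Percentile means the share of a list's nuclear intervals that rank below an interval by −log10 p, with tied intervals given their average rank. Tied intervals therefore count in part, and the weakest intervals of a list stand somewhat above the bottom of the scale. Where an interval is tied to several genes, the listed start site can be that of the partner. The members, the list of splicing genes with other names, the markers and the motifs were chosen with earlier results of these data known. No test was made over the members, since 2 libraries against 2 cannot give an exact permutation p below 1 in 3; counts are set beside those of all protein-coding genes. Named genes were those marked in all 6 libraries, the 10 best ranked of each both-and-neither pattern, Dhx38, Txnl4b, Tra2a, Tra2b, the leading gene of each class and members with no promoter interval (29 in all); other members were named to fill out a class after their values were seen. Calls, patterns and motif searches were tested on simulated data. Python 3.11.15 was used with NumPy 2.4.6, pandas 2.3.3, matplotlib 3.10.9 and SciPy 1.17.1. Alternatives were other promoter windows, the authors' class, fold and −log10 q thresholds, equal list lengths, a minimum overlap, shared promoters left out, each library left out, and pairing by replicate number. Of the members, 1 gene is counted in every total and is not reported here by name.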

Additional observations from a re-analysis of the deposited data

How the results depend on the processing

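All counts of members and of outside genes were alike (within 1.5 times) with the authors' promoter class, a 2.5 kb window and an overlap of at least 100 bp. With a 0.5 kb window, 1 splicing gene outside the name rule was marked in both germ-free and neither conventional library, and at a fold of 5 or more 2 members were. For the 29 genes named by rule, the number of libraries with a call changed at 22 with equal list lengths, at 15 with −log10 q from 5 upward, at 8 without shared promoters, at 6 with the 0.5 kb window, at 4 with a fold of 5 or more, at 2 with the 2.5 kb window (Hnrnpa3 and U2af1), at 1 with the 100 bp overlap (Snrpd3) and at 0 with the authors' class.

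Counting only intervals with a −log10 q from 5 upward, 16 and 42 members were marked in the conventional libraries, 4 and 0 for E. coli and 17 and 43 for germ-free. Then 1 member was in both conventional and neither germ-free library, 13 had both germ-free calls and no E. coli call, and 0 members and 0 outside genes in all 6.

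With lists of equal length (868 intervals), 9 and 8 members were marked in the conventional libraries, 6 in E. coli replicate 1 and 11 and 12 in the germ-free libraries. Then 0 members were in both conventional and neither E. coli library, 1 in both E. coli and neither conventional library, 2 had both germ-free calls and no E. coli call, and 1 was in all 6. For outside genes the counts were 2 (conventional, not E. coli), 1 (germ-free, not conventional), 3 (germ-free, not E. coli) and 0 (all 6). This setting shortens every list but one by construction.

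Without promoter intervals tied to several genes, 16 members were marked in conventional replicate 1, 7 were in both conventional and neither E. coli library, 16 had both germ-free calls and no E. coli call, and 1 outside gene was in all 6.

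Leaving out each library in turn gave 4 to 8 members in all libraries kept, 17 to 63 in conventional and not E. coli libraries, 0 to 8 in conventional and not germ-free, 26 to 62 in germ-free and not E. coli, and 1 to 18 in germ-free and not conventional. For outside genes these ranges were 2 to 7, 8 to 48, 0 to 6, 10 to 47 and 0 to 13. Patterns led by the E. coli libraries stayed at 0. Leaving out a library of the leading group also changes how many genes could be counted. The counts of this section stand without the share over all genes under the same setting.

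Pairing libraries by replicate number (replicate block) gave the same counts by construction: 17 for conventional and not E. coli, 26 for germ-free and not E. coli. The number is only shared, and whether it pairs libraries was not tested. Depth and list length limit what a missing call means.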

Other observations

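At Hnrnpf, singled out after its values were seen, intervals lay 16430 to 21397 bases before the start site in conventional replicate 2, E. coli replicate 1 and germ-free replicate 2. The E. coli replicate 1 interval there had a fold of 5.33, although no E. coli library had an interval at the Hnrnpf promoter. At Hnrnpl, a regulator of alternative splicing that was also singled out after its values were seen, the promoter was marked in conventional replicate 2 (fold 3.62) and germ-free replicate 2 (fold 7.60). The 3.62 equals the lowest fold of its list. Upstream intervals tied to both Hnrnpl and its neighbour Ech1 were in 5 of the 6 lists. Their highest folds were 7.08 and 13.0 in the conventional lists, 6.51 in E. coli replicate 1, and 7.50 and 8.87 in the germ-free lists. In RefSeq the first base of Hnrnpl lies inside this stretch, upstream of the start sites that the lists give. Which gene these intervals belong to was not tested.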
